A study of Mus musculus with 6 samples.

Results

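The membrane skeleton of the red cell was followed through 8 genes, Sptb, Ank1, Epb41, Epb42, Slc4a1, Rhag, Rhd and Add2, out of 38293 genes in the count files. They were chosen by name as parts of the erythroid membrane and were matched from their symbol to 1 mouse Ensembl gene each and to the exon bins of that gene. RNA was sequenced from Lin-cKit+ fetal liver (FL) cells, the progenitor fraction of the liver, of C57BL/6 embryos at embryonic day 14.5. The 3 wt embryos were compared with 3 embryos in which floxed hnRNP L alleles had been deleted by a Vav-Cre transgene, which is active in blood forming cells and their descendants, and each library came from 1 embryo. The labels name the source as fetal liver cells and the tissue as whole embryo, and the sort of Lin-cKit+ cells is known from the methods of the study, where the antibodies against mature cells included one for erythroid cells but, for FL, none against CD11b. The genotype labels say only hnRNPL wild-type or knockout, and neither the Cre status nor the floxed alleles of the individual wt embryos were known here. Exon bins were available from the 3 wt embryos and from hnRNP L deficient embryos 2 and 3.

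The red cell membrane is held by a lattice of spectrin, which is joined at short actin filaments by protein 4.1R and the adducins. Ankyrin ties beta spectrin to band 3, the anion exchanger, with protein 4.2 and the Rh proteins in the same complex. Inherited loss of spectrin, ankyrin, band 3 or protein 4.2 is known to cause spherocytosis, and loss of 4.1R elliptocytosis. Most of these genes are switched on as erythroid progenitors mature, and the pre-mRNA of Epb41 and Ank1 is spliced differently at different stages. hnRNP L is a nuclear RNA-binding protein known for binding CA-rich RNA and for a part in choosing exons.

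Between 55952160 and 76157226 reads fell on genes in each library, at which 3 reads are at most 0.054 CPM (counts scaled to the normalized library size and given per 1000000 reads). The mRNA of the deleted gene, Hnrnpl, was at 552, 531 and 528 CPM in wt and at 242, 288 and 270 CPM in hnRNP L deficient embryos 1 to 3, which put every library on the side of its label. Of the cell type markers, those of stem and multipotent progenitors stood at summed levels of 641 to 962 CPM in wt and 435 to 478 CPM in hnRNP L deficient cells, and 6 of 9 fell. Granulocyte-monocyte markers ranged from 603 to 8010 CPM in wt and from 248 to 784 CPM in hnRNP L deficient cells (2 of 9 fell), and the highest sum was that of wt embryo 2. Hepatocyte markers were at 112 to 242 CPM in wt and 21.3 to 73.4 CPM in hnRNP L deficient cells (1 of 7 fell in edgeR and 6 in DESeq2). Macrophage markers fell in 3 of 7 tested, lymphoid markers in 3 of 4, endothelial markers in 2 of 6, megakaryocyte markers in 2 of 7 and mast cell markers in 0 of 5 (edgeR, with 1 at an unadjusted p below 0.05, and 0 in DESeq2 and limma voom), and the macrophage marker Cd163 was at 0 in every library. Erythroblast markers summed to 2240 to 2710 CPM in wt and 2020 to 2630 CPM in hnRNP L deficient cells, and of 10 of them 1, Car1, rose and 1 fell. Over all genes tested, edgeR called 9.85% as lower and 9.32% as higher, and DESeq2 called 15.6% as lower. The edgeR counts of 1 of 7 and of 1 of 10 markers were near these shares. The part of the marker differences in the results that follow was not tested, and in bulk RNA fewer cells of a type and less RNA per cell cannot be told apart.

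All 8 genes passed the filter on low counts. Of these, 1 gene, Rhd, passed an adjusted p of 0.05, and it was lower in hnRNP L deficient cells. Over all 14396 genes tested, 19.2% were called, 9.85% as lower and 9.32% as higher in hnRNP L deficient cells, so 1 of 8 was no more than the background. The 3 wt and the 3 hnRNP L deficient libraries did not overlap for Rhd, Epb42 and Add2, 3 of the 8 genes, where 45.5% of all genes tested did not overlap. The median log2 fold change (hnRNP L deficient minus wt) was -0.08 over the 8 genes and -0.03 over all genes tested. The lowest level among them was 29.7 CPM, for Slc4a1 in hnRNP L deficient embryo 1.

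**Figure D1:**
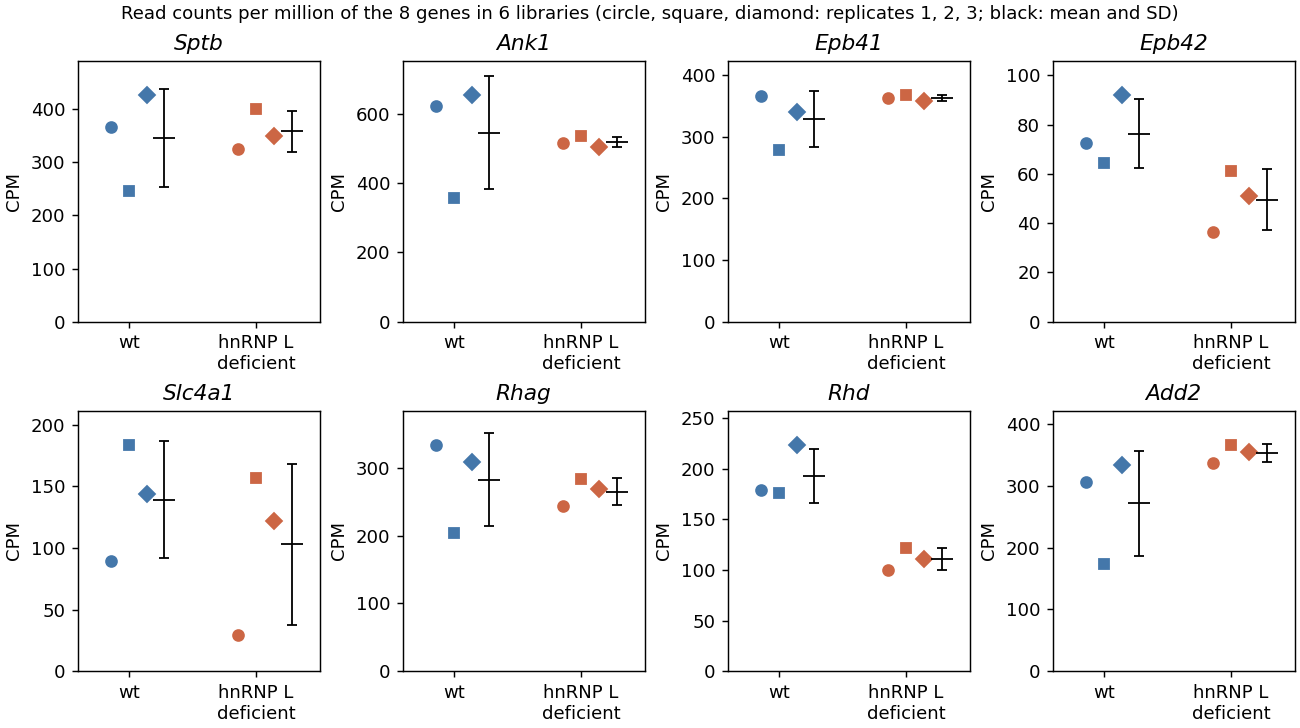
Each panel plots the CPM of 1 of the 8 genes in the 3 wt libraries (blue) and the 3 hnRNP L deficient libraries (orange), with the mean and SD in black and the axis starting at 0. Rhd and Epb42 sat lower in all hnRNP L deficient libraries, and wt embryo 2 was the lowest of the 6 libraries for Sptb, Ank1, Epb41, Rhag and Add2.

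Among the genes of the spectrin lattice, Sptb, the beta spectrin of the red cell, was at 366, 246 and 427 CPM in wt and at 325, 401 and 350 CPM in hnRNP L deficient embryos. The groups overlapped, and the log2 fold change of 0.05 ± 0.20 (SE, n = 3 per group) did not pass the test (edgeR, adjusted p = 0.87). Ank1, which anchors the lattice to band 3, had the highest CPM of the 8 genes, at 623, 358 and 654 in wt and 517, 535 and 505 in hnRNP L deficient embryos. Its hnRNP L deficient libraries lay close together, between wt embryo 2 and the other 2 wt embryos (log2 fold change -0.07 ± 0.21, adjusted p = 0.84). Epb41, protein 4.1R of the junctions, was at 367, 279 and 341 CPM in wt and at 364, 368 and 358 CPM in hnRNP L deficient embryos (log2 fold change 0.14 ± 0.11, adjusted p = 0.37).

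Add2, the beta adducin that caps actin at the junctions, was at 307, 174 and 334 CPM in wt and at 338, 367 and 355 CPM in hnRNP L deficient embryos. The groups did not overlap, but the highest wt library came close to the lowest hnRNP L deficient one, and the log2 fold change of 0.38 ± 0.23 did not pass the test (adjusted p = 0.27). For Sptb, Ank1, Epb41, Rhag and Add2, 5 of the 8 genes, wt embryo 2 was the lowest of the 6 libraries. This was also the embryo with the highest granulocyte-monocyte markers, with Mpo at 5610 CPM against 471 and 1170 CPM in wt embryos 1 and 3. Its reads also lay more toward the transcript end. Of every 1000 exon bin reads of Sptb, bin 7 near that end took 104, 162 and 105 in wt embryos 1 to 3. Bin 38 near the transcript start took 26.5, 13.9 and 26.8. For Epb41 bin 2, also near the end, these shares were 83.5, 122 and 82.6. The part of the markers or of this coverage in its levels was not tested. Without wt embryo 2 the log2 fold changes of Ank1 (-0.30, adjusted p = 0.025) and Rhag (-0.28, adjusted p = 0.048) passed the test as lower, that of Add2 shrank to 0.14 (adjusted p = 0.21), and that of Sptb turned to -0.14 (adjusted p = 0.38). As this embryo was picked for being the lowest, leaving it out lowers each of these fold changes, so the passes are only a description. With 1 library left out, up to 2479 genes were called as lower, against 1418 with all 6 libraries. Without wt embryo 3 Ank1 turned to 0.082, and without wt embryo 1 Rhag turned to 0.053.

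Slc4a1, the anion exchanger band 3, varied most between embryos of 1 genotype. It was at 89.4, 184 and 144 CPM in wt and at 29.7, 157 and 122 CPM in hnRNP L deficient embryos, with embryo 1 the lowest of its group in both. The log2 fold change was -0.43 ± 0.63 (adjusted p = 0.66), and without hnRNP L deficient embryo 1 it was 0.01 (adjusted p = 0.98). Epb42, protein 4.2, which binds band 3 and ankyrin, was at 72.6, 64.5 and 92 CPM in wt and at 36.5, 61.2 and 50.9 CPM in hnRNP L deficient embryos. All 3 hnRNP L deficient libraries were below all wt libraries, to 64.9% of the wt level in the fit (log2 fold change -0.62 ± 0.21), and the adjusted p of 0.078 missed the threshold. Other tools placed it past the threshold, with an adjusted p of 0.016 from DESeq2, which called 15.6% of all genes as lower, and 0.03 from limma voom with sample weights, which called 19.1%.

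The Rh genes encode the core of the Rh complex. Rhag, the glycoprotein needed for the complex to reach the surface, was at 334, 204 and 309 CPM in wt and at 243, 283 and 268 CPM in hnRNP L deficient embryos (log2 fold change -0.09 ± 0.18, adjusted p = 0.75). Rhd, its partner and the only Rh antigen gene of the mouse, was at 179, 176 and 224 CPM in wt and at 100, 122 and 111 CPM in hnRNP L deficient embryos. No hnRNP L deficient library reached the lowest wt library, and Rhd fell to 57.4% of the wt level (log2 fold change -0.80 ± 0.12, edgeR, adjusted p = 0.015). With any 1 library left out, the log2 fold change of Rhd stayed between -0.86 and -0.68. The adjusted p then passed 0.05 without wt embryo 1 (0.01) or wt embryo 2 (0.0054), and missed it without wt embryo 3 (0.053) and without hnRNP L deficient embryo 1 (0.075), 2 (0.068) or 3 (0.093).

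**Figure D2:**
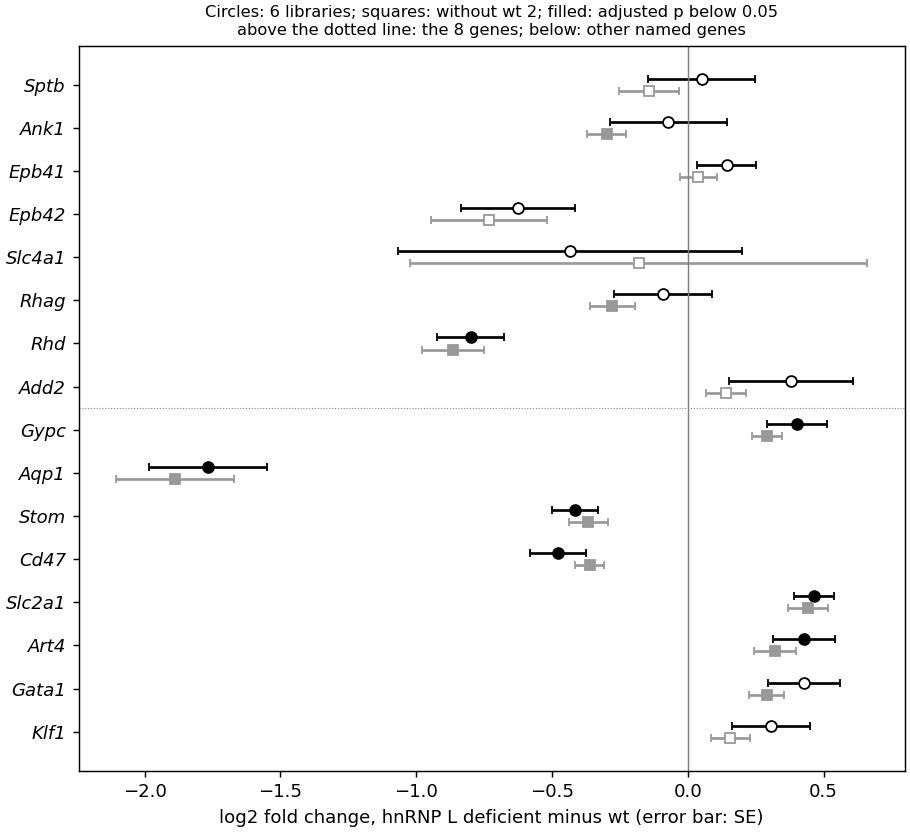
Log2 fold changes (hnRNP L deficient minus wt) with SE as bars are plotted for the 8 genes above the dotted line and for other named genes below it, from all 6 libraries (circles) and without wt embryo 2 (squares), with filled symbols where the adjusted p was below 0.05. Rhd at -0.80 was the only filled circle among the 8 genes, and Ank1 and Rhag were filled only as squares.

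Levels were set against each other as CPM per 1000 bases of the longest annotated coding sequence, a rough scale because reads also fall on untranslated parts. In wt the order was Rhag with 215 ± 52.5 (SD, n = 3), Rhd with 154 ± 21.4, Epb41 with 126 ± 17.3, Add2 with 125 ± 39.4, Ank1 with 95.3 ± 28.4, Slc4a1 with 49.9 ± 17, Sptb with 49.6 ± 13.2 and Epb42 with 36.8 ± 6.82. The libraries of every pair of neighbours in this order overlapped. In hnRNP L deficient cells Rhag stayed first with 201 ± 15.4, and it was followed by Add2 with 162 ± 6.7, Epb41 with 139 ± 1.93, Ank1 with 90.7 ± 2.64 and Rhd with 88.5 ± 8.77. Sptb with 51.3 ± 5.54, Slc4a1 with 36.9 ± 23.6 and Epb42 with 23.9 ± 5.98 followed. Rhag, Add2, Epb41 and Ank1 did not overlap with the next gene there except for Ank1 and Rhd. Taken within a library, Rhd came next after Rhag in all 3 wt libraries, although the ranges over embryos overlapped. In wt embryo 1 it was only just above Epb41 and Add2 (143 against 141 and 141). In every hnRNP L deficient library Rhd was below Add2 and Epb41, with no order between it and Ank1.

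Ratios of 2 read counts in the same library do not depend on the scaling between libraries, and 14 were tested by an exact two-sided permutation test, for which 0.1 is the smallest p that 3 against 3 libraries allow. Rhd per read of Rhag was 0.536, 0.863 and 0.727 in wt and 0.411, 0.431 and 0.413 in hnRNP L deficient embryos. The hnRNP L deficient ratios were nearly equal and all below wt (log2 difference -0.73, exact p = 0.1, adjusted over the ratios p = 0.2). Add2 per read of Add1, the alpha adducin, was 0.829, 0.506 and 0.781 in wt and 0.989, 1.16 and 1.16 in hnRNP L deficient embryos, all above wt (log2 difference 0.67, exact p = 0.1, adjusted p = 0.2). Add1 itself was below every wt library in each hnRNP L deficient library (log2 fold change -0.24, edgeR, adjusted p = 0.13). Epb42 per read of Slc4a1 overlapped, between 0.351 and 0.813 in wt and between 0.39 and 1.23 in hnRNP L deficient embryos (exact p = 1).

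Against paralogs of other tissues, both Sptb per read of Sptbn1 (1.38 to 4.73 in wt, 5.36 to 6.66 in hnRNP L deficient embryos) and Epb41 per read of Epb41l2 (7.26 to 13.2 and 13.9 to 16.3) were higher in every hnRNP L deficient library, each with an exact p of 0.1 (adjusted p = 0.2). The lowest wt ratio of both was that of embryo 2. The paralogs themselves were below every wt library in each hnRNP L deficient library (log2 fold change -0.96 for Sptbn1, edgeR, adjusted p = 0.071, and -0.46 for Epb41l2, adjusted p = 0.06). Sptb and Epb41 by their own CPM overlapped between the groups (0.05 and 0.14), so the higher ratios went with lower paralogs. Each of the 8 genes was also set against the mean of 8 erythroid transcription factors, taken on log2 CPM and so a geometric mean of their CPM. Rhd stood at 0.645, 0.774 and 0.734 of that mean in wt and at 0.318, 0.413 and 0.373 in hnRNP L deficient embryos, and Epb42 at 0.261, 0.284 and 0.301 against 0.116, 0.207 and 0.171. These 2 genes were the only ones of the 8 whose groups did not overlap on this scale (log2 differences -0.97 and -0.81, each with exact p = 0.1, adjusted p = 0.2). For Sptb, Ank1, Epb41, Slc4a1, Rhag and Add2 the log2 differences lay between -0.86 and 0.26, with exact p between 0.3 and 0.9 (adjusted p between 0.467 and 0.969). This depended on the reference. Against Gata1 and Klf1 alone, the ratios of Ank1, Epb41 and Rhag were also lower in every hnRNP L deficient library (log2 differences -0.41, -0.23 and -0.45). Like those of Rhd and Epb42, each had an exact p of 0.1 (adjusted p = 0.14), while the difference of Add2 shrank to 0.049. Gata1 and Klf1 themselves were above every wt library in each hnRNP L deficient library (log2 fold changes 0.43 and 0.31). By their own CPM the groups of Ank1, Epb41 and Rhag overlapped (log2 fold changes -0.07, 0.14 and -0.09), so these ratios were lower relative to a higher reference.

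**Figure D3:**
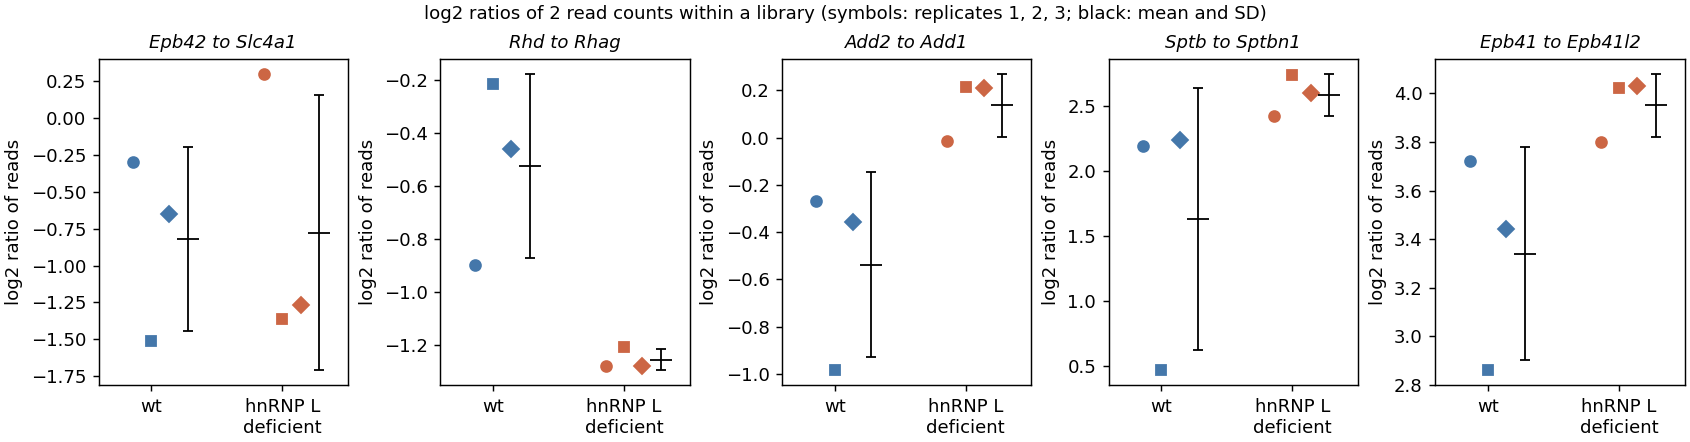
Each panel plots the log2 of 1 ratio of read counts in each of the 3 wt (blue) and 3 hnRNP L deficient (orange) libraries, with the mean and SD in black. The ratio of Rhd to Rhag was 0.411 to 0.431 in hnRNP L deficient and 0.536 to 0.863 in wt libraries, and only Epb42 to Slc4a1 overlapped between the groups.

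Of 32 other genes of the red cell membrane and skeleton, 4 fell, 3 rose and 25 did not pass the test in edgeR. Over all genes tested 9.85% fell and 9.32% rose, so these counts were near the background. In either direction DESeq2 called 10 of the 32 and limma voom 14. Over all genes these tools called 15.6% and 19.1% as lower and nearly as many as higher. Their counts were thus near the background as well. The median log2 fold change of the 32 was 0.002 in edgeR. Of those that fell, Aqp1, a water channel, was at 268, 263 and 427 CPM in wt and at 91, 109 and 80.9 CPM in hnRNP L deficient embryos (log2 fold change -1.77 ± 0.22, adjusted p = 0.012). Cd47 (-0.48, adjusted p = 0.025), which binds SIRP alpha on macrophages and belongs to the Rh complex, and Stom (-0.42, adjusted p = 0.023), the lipid raft protein stomatin, were also lower, in 3 of 3 libraries each. The 3 genes that rose were Slc2a1, a glucose transporter (0.47, adjusted p = 0.015), Art4, which carries the Dombrock antigen (0.43, adjusted p = 0.041), and Gypc, glycophorin C, which binds protein 4.1R (0.40, adjusted p = 0.044). With total counts in place of TMM normalization Art4 (adjusted p = 0.052) and Gypc (adjusted p = 0.06) missed the threshold. All 6 genes named here kept their direction with any 1 library left out, but missed the threshold, as Rhd did, without wt embryo 3 or without any 1 hnRNP L deficient embryo (adjusted p between 0.052 and 0.16).

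Of 8 erythroid transcription factors, which control many of the membrane genes, none passed the test in edgeR (1 had an unadjusted p below 0.05), 1 passed in DESeq2 and 2 in limma voom with sample weights, and their median log2 fold change was 0.17. Gata1 was at 251, 181 and 248 CPM in wt and at 318, 299 and 298 CPM in hnRNP L deficient embryos, all above wt (log2 fold change 0.43 ± 0.13, adjusted p = 0.06). Its adjusted p passed the threshold in DESeq2 (0.014) and in limma voom (0.015). Over all 14396 genes tested, edgeR called 1341 as higher and limma voom 2537, with DESeq2 between them. The 1 or 2 of 8 factors called by these tools were thus near the background. Klf1 was at 329, 238 and 348 CPM in wt and at 393, 377 and 363 CPM in hnRNP L deficient embryos (0.31 ± 0.14, adjusted p = 0.16). Of 16 paralogs that act outside the red cell 11 were tested, and only Epb41l3 was called by edgeR, as lower, at 0.81 to 1.72 CPM in wt and 0.171 to 0.413 CPM in hnRNP L deficient embryos (log2 fold change -2.21 ± 0.51, adjusted p = 0.029, and between 0.072 and 0.13 without wt embryo 3 or any 1 hnRNP L deficient embryo). DESeq2 and limma voom each called 5 of the 11 in either direction. Over all genes they called 15.6% and 19.1% as lower, and nearly as many again as higher. The median log2 fold change of the 11 was -0.53 in edgeR. Sptan1 (-1.45, edgeR, adjusted p = 0.064) and Sptbn1 (-0.96, adjusted p = 0.071) were below every wt library in each hnRNP L deficient library. Epb41l4b (0.61, adjusted p = 0.066) was above. Sptan1 and Sptbn1 were highest in wt embryo 2, at 117 and 178 CPM.

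Promoter windows of RefSeq (GRCm38.p6, 250 bases before to 50 after the start) were held for 6 of the 8 genes, Sptb, Epb41, Epb42, Rhag, Rhd and Add2, in 8 windows. GATAA, the core that GATA factors bind, or TTATC, the same letters on the other strand, was found in the windows of Epb42, Rhag and Rhd, 3 of 6 genes, where 25.4% of all 32851 windows held it. CCNCNCCC, the letters of Klf1 sites, or its reverse complement was found in Sptb, Epb41, Rhd and Add2, 4 of 6 genes, against 49.5% of all windows. Copies were counted also where they overlapped. A gene counted if any of its windows held the letters, and Epb41 had several windows. The shares over all are per window, so the counts of genes and these shares are unlike measures. The 100 bases before the start of Rhd, which fell, and of Rhag, which did not pass the test, are shown with GATAA or TTATC in capitals (plus strand, Rhd at chr4:134864436-134864535 and Rhag at chr17:40811049-40811148).
Rhd: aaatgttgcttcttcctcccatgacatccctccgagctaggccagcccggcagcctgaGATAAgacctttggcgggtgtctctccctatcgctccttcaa
Rhag: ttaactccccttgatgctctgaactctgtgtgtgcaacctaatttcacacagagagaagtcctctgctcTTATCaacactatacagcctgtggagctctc
Both held the letters once within these 100 bases, on opposite strands, and the windows say nothing of binding.

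Exon bins were then compared, the non-overlapping pieces into which the annotated transcripts of a gene cut its exons. The 8 genes had 265 bins, of which 237 had the mean of 10 reads needed for the test. The usage of a bin is its share of the reads of its gene, and its log2 difference is hnRNP L deficient (n = 2) minus wt (n = 3). None of the 237 bins passed an adjusted p of 0.05 in diffSpliceDGE of edgeR, where 0.0288% of all 176996 bins tested did. At an unadjusted p below 0.05 there were 5 of 237 bins (2.11%), against 1.03% of all bins. By the rule of p below 0.01 with more than a 2-fold change, which 0.249% of all bins met, 1 bin of the 8 genes was called, bin 52 of Ank1. The DEXSeq model fitted with DESeq2, which called 0.316% of all bins, called 4 of the 237, bins 51, 52, 53 and 56 of Ank1. The limma diffSplice test, which called 0.123% of all bins, called 0 of the 237 (of the bins named here, bin 52 of Ank1 and bin 42 of Epb41 had an unadjusted p below 0.05 there).

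Bins carry only numbers in the files. Their positions were inferred by cutting up the GENCODE vM21 transcripts (GRCm38) in the same way, which gave the deposited number of bins for Sptb, Ank1, Epb42, Slc4a1 and Rhd, and for Epb41 and Rhag after 1 and 2 transcripts were left out. For Ank1, reads per base followed the number of transcripts that share a bin with a Spearman correlation of 0.706 over 82 bins, and of 0.112 when the bins were numbered the other way. Add2 could not be matched in this way, and its bins are given by number only.

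Bins 51, 52 and 53 of Ank1 lie one after the other on the plus strand of chromosome 8, from 23122901 to 23123831, between the coding bins 50 and 54. Bins 51 and 53 are annotated only in a transcript that retains the intron, and bin 52 (chr8:23123306-23123638) also as the last exon of a shorter coding transcript. Bin 52 received 3, 1 and 12 reads in wt embryos 1 to 3 and 63 and 98 reads in hnRNP L deficient embryos 2 and 3. Bin 53 received 9, 2 and 17 reads in wt and 44 and 68 in hnRNP L deficient embryos, and bin 51 received 7, 5 and 18 against 36 and 56. In all 3 bins both hnRNP L deficient libraries were above every wt library, while the coding bin 54 next to them had 1443, 966 and 2091 reads in wt and 1504 and 1709 in hnRNP L deficient embryos.

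The log2 usage difference of Ank1 bin 52 was 3.80 (adjusted p = 0.27 in diffSpliceDGE of edgeR). Its adjusted p was 9e-06 in the DEXSeq model and 1 in limma diffSplice, and without wt embryo 2 it was 2.7e-06 in edgeR. The log2 usage difference was 2.47 for bin 53 (adjusted p = 1, and 0.0031 in the DEXSeq model) and 2.09 for bin 51 (adjusted p = 1, and 0.0017 in the DEXSeq model). A read can count on several neighbouring bins, so the 3 bins are not independent. Per base, bins 51 to 53 together reached 0.208%, 0.131% and 0.355% of bin 54 in wt and 1.5% and 2.05% in hnRNP L deficient embryos, so the region stayed a small part of Ank1 mRNA. The intron after bin 54, bin 55, reached 0.229%, 0.0843% and 0.254% of bin 54 in wt and 0.379% and 0.325% in hnRNP L deficient embryos (log2 usage difference 0.76, adjusted p = 1). Bin 56 (chr8:23131438-23131554), annotated only in a transcript marked for nonsense-mediated decay, received 26, 18 and 60 reads in wt and 94 and 108 in hnRNP L deficient embryos (log2 usage difference 1.46, adjusted p = 1, and 0.0021 in the DEXSeq model). Bins 51, 54, 55 and 56, and bin 78 below, were named after their values were seen.

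The coding part of Ank1 bin 52 (chr8:23123306-23123421, GRCm38, plus strand) is shown because this exon had the largest usage difference of the 8 genes, with the stop codon that ends its reading frame in capitals. The second line gives a run of CA repeats that follows in the untranslated part of the same bin (chr8:23123460-23123489), with the run in capitals, since hnRNP L is known for CA-rich sites.
Ank1 bin 52, end of the coding part: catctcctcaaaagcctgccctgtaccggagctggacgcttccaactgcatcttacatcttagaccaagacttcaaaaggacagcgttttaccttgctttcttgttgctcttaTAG
Ank1 bin 52, CA run: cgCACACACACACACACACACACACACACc
The run was 27 bases long and began at base 157 of the 333 bases of bin 52. CACACACA on the transcript strand was searched after the values of bin 52 were seen, and overlapping copies were counted. It was found in 1.27% of 18136 annotated exons of 300 to 366 bases, and in 3 of the 249 bins of the 7 genes with inferred positions. The other 2 were bin 7 of Sptb, with a longer run of 41 bases and a log2 usage difference of -0.29 (adjusted p = 1), and bin 8 of Epb42, with a run of 8 bases and a difference of 0.18 (adjusted p = 1). A match is only a description of the letters, and binding of hnRNP L was not measured here.

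**Figure D4:**
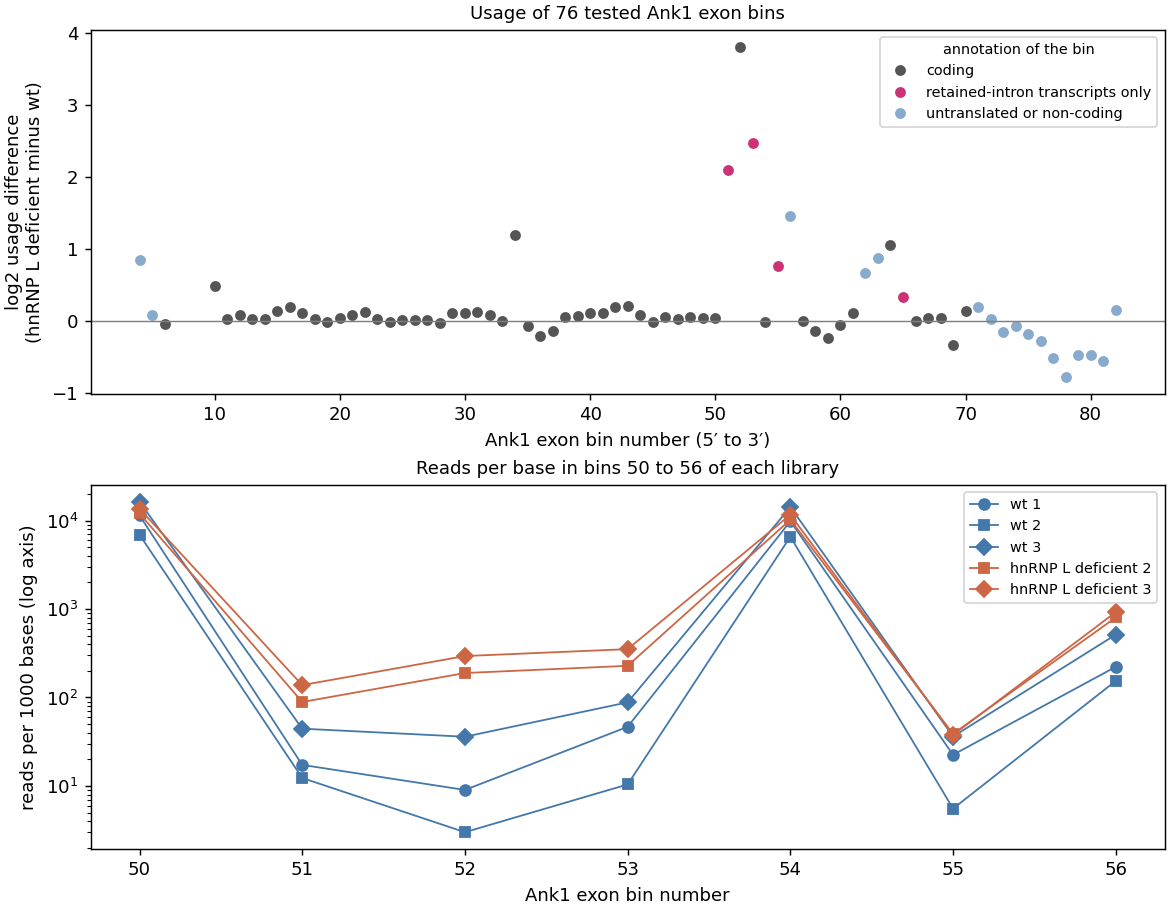
The upper panel plots the log2 usage difference (hnRNP L deficient minus wt) of each of the 76 tested Ank1 bins against the bin number, coloured by annotation, and the lower panel the reads per 1000 bases of bins 50 to 56 in each library on a log axis. Bin 52 was the highest at 3.80, bins 53 and 51 followed at 2.47 and 2.09, and both hnRNP L deficient libraries lay above the wt libraries in bins 51 to 53, 55 and 56 but not in bins 50 and 54.

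Among the other bins of Ank1, bin 78 in the untranslated end was the fourth with an unadjusted p below 0.05 and was lower. It took 14.7, 27.1 and 18.1 of every 1000 reads of the gene in wt and 10.6 and 11.4 in hnRNP L deficient embryos (log2 usage difference -0.78, adjusted p = 1), and the highest share was that of wt embryo 2. The reads of that embryo lay more toward the transcript end in Sptb and Epb41, as given above. In the 7 genes with inferred positions, all 5 tested bins that are annotated only in intron-retaining transcripts had differences above 0 (median log2 0.76), 4 of them in Ank1, while the 176 tested coding bins had a median of 0.04. This share is given as a description, since it holds the bins chosen above.

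Small alternative exons of Epb41 are shown in transcript order. The last of them, bin 16, encodes a part of the spectrin-actin binding domain of 4.1R, and its inclusion is known to rise as erythroid cells mature. These bins and the neighbouring bin 15 were chosen after their values were seen. They lie on the minus strand of chromosome 4 (GRCm38) at chr4:131964131-131964187 for bin 18, chr4:131963929-131963970 for bin 17 and chr4:131962924-131962986 for bin 16.
Epb41 bin 18: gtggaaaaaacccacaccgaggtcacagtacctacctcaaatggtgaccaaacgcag
Epb41 bin 17: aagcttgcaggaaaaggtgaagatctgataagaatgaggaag
Epb41 bin 16: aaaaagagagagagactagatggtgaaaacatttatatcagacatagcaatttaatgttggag
Bin 16, of 63 bases, received 76, 56 and 100 reads in wt and 87 and 70 reads in hnRNP L deficient embryos. The neighbouring bin 15, which most transcripts share, received 1363, 1091 and 1665 reads in wt and 1811 and 1805 in hnRNP L deficient embryos. Per base, bin 16 thus stood at 15.7%, 14.4% and 16.9% of bin 15 in wt and at 13.5% and 10.9% in hnRNP L deficient embryos, which were the lowest of the 5 libraries. The log2 usage difference of -0.27 did not pass the test (adjusted p = 1).

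Bin 17 of Epb41 received 0, 0 and 4 reads in wt and 5 and 0 in hnRNP L deficient embryos and was not tested. Bin 18 stood at 2.51%, 2.28% and 0.746% of bin 15 per base in wt and at 3.09% and 3.78% in hnRNP L deficient embryos (log2 usage difference 0.98, adjusted p = 1), both above wt but resting on 4 to 22 reads per library. The Epb41 bin with the smallest p was bin 42 (chr4:132070687-132072097), an untranslated stretch near the start of the gene, with 22, 13 and 39 reads in wt and 74 and 70 in hnRNP L deficient embryos (log2 usage difference 1.27, adjusted p = 1). Bin 12 followed, with 13, 23 and 29 reads in wt and 55 and 50 in hnRNP L deficient embryos (log2 usage difference 0.98, adjusted p = 1). Both bins had more reads in each hnRNP L deficient library than in any wt library.

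**Figure D5:**
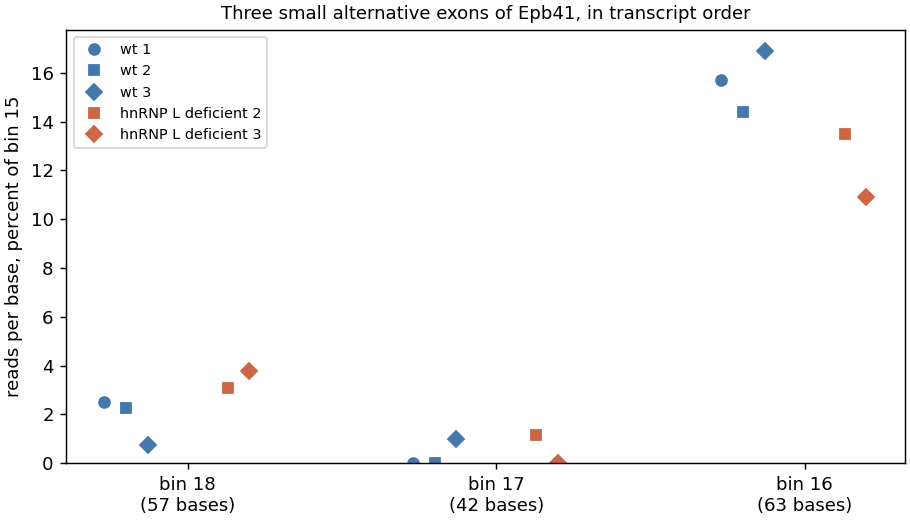
Reads per base of Epb41 bins 18, 17 and 16 are plotted as a percentage of those of bin 15 for the 3 wt libraries (blue) and hnRNP L deficient libraries 2 and 3 (orange), with the axis starting at 0. Bin 16 was at 14.4% to 16.9% in wt and at 10.9% and 13.5% in hnRNP L deficient libraries, and bin 17 was at or close to 0 in all.

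In the other 6 genes no bin had an unadjusted p below 0.05, and every tested bin had an adjusted p of 1. The bins with the smallest p in Sptb were bin 1, with 42, 44 and 41 reads in wt and 28 and 35 in hnRNP L deficient embryos (log2 usage difference -0.78), and bin 6 (-0.93), of 37 tested. In Epb42 they were bins 26 (0.61) and 2 (-0.27) of 24, and in Slc4a1 bins 1 (-0.25) and 14 (0.23) of 24. In the Rh genes the log2 usage differences stayed close to 0, between -0.11 (bin 10) and 0.13 (bin 1) over 10 bins of Rhag and between -0.09 (bin 10) and 0.11 (bin 7) over 11 bins of Rhd. No bin of Rhd stood apart from the others in this comparison. The 16 bins of Add2 lay between -0.14 and 0.10, with the smallest p for bin 13 (-0.14) and bin 14 (-0.12).

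The mean of the standardized log2 CPM of the 8 genes was lowest in wt embryo 2 (-0.94) and hnRNP L deficient embryo 1 (-0.59), and highest in wt embryo 3 (0.78). Outside the lists, the 5 genes whose log2 CPM followed this mean most closely over the 6 libraries were Cramp1l (Pearson r = 0.993), Fkbp10 (0.989), Tex15 (0.988), Ccdc6 (0.986) and Iqcd (0.985). Fkbp10 and Tex15 were below 1 CPM in every library, and the values are a description over 6 points that share depth and composition.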

How the data were processed

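The authors aligned paired-end reads of a stranded mRNA kit to GRCm38 with TopHat2 2.0.10 (per the methods and the submitters' processing notes), and deposited raw counts, made with HTSeq for Ensembl genes and with DEXSeq's Python script for exon bins. The Ensembl release, the strand setting and how overlapping genes were counted are not given in the sources used here. Between 46.7% and 53.3% of the records of a gene file named no gene and were left out, as were 31.7% to 37.4% for bins. Reads on bins totalled 102176927 to 145043938 per library. Exon bins of hnRNP L deficient embryo 1 were not analysed here.

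The deposited gene counts were normalized by TMM and tested with the quasi-likelihood test of edgeR 4.0.16 in R 4.3.3 after its default filter (filterByExpr, robust fit), with Benjamini-Hochberg adjustment over all 14396 genes tested. The SE is the log2 fold change over the square root of F. Bins averaging 10 reads or more entered diffSpliceDGE, with adjustment over 176996 bins, and were tested by limma 3.58.1 and DESeq2 1.42.0 as alternatives. Ratios were tested in SciPy 1.17.1. The steps were tested on simulated data. Each library is a separate embryo, numbered here in accession order, so the numbers pair nothing. The first part of the embryo's own label is shared across genotypes only by embryo 1 of each, and within a genotype by hnRNP L deficient embryos 2 and 3, and its meaning is not given. Symbols matched 94.9% of gene IDs. The 8 genes and all lists were chosen with earlier results of these data known. Named are all 8 genes, their called bins or else the 2 bins with the smallest p each, up to 4 called genes of each list per direction, Gata1 and Klf1, and the 5 genes most like the 8 in level. Some results that this rule names are not reported here.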

Additional observations from a re-analysis of the deposited data

How the results depend on the processing

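The call of Rhd as lower held under each of 7 other tools, scalings and filters, with log2 fold changes of -0.87 to -0.78, and was lost without wt embryo 3 or without any 1 hnRNP L deficient embryo, as given above. The cause was not tested. Over all genes these 4 fits called 5 to 15 genes as higher and 0 to 2 as lower. The count of genes called as higher was 1341, and 2064 with DESeq2, 2537 with limma voom and 5 to 2312 with 1 library left out. The count called as lower was 1418, and 2236 with DESeq2, 2751 with limma voom and 0 to 2479 with 1 library left out. Of the 8 genes, 2 were lower with DESeq2 and with limma voom (Rhd and Epb42), and 0 to 3 with 1 library left out. The exon bins called went from 51 to 441 by the rule of p and fold, 218 with limma, 560 with the DEXSeq model and 3 to 158 with 1 library left out, and those of the 8 genes from 0 to 1, 0, 4 and 0 to 1. With Gata1 and Klf1 alone as the reference, the log2 differences became -0.30 for Sptb, -0.41 for Ank1, -0.23 for Epb41, -0.45 for Rhag and -1.18 for Rhd, and those of Ank1, Epb41 and Rhag reached the smallest exact p of 0.1, as given above. Signs turned for values that passed no test with all libraries. For Sptb the log2 fold change was -0.017 with total counts, -0.085 with limma voom and, with 1 library left out, between -0.14 (wt embryo 2) and 0.23 (wt embryo 3), also turning to -0.017 without hnRNP L deficient embryo 2. The ranges with 1 library left out were -0.30 (wt embryo 2) to 0.082 (wt embryo 3) for Ank1, -0.28 (wt embryo 2) to 0.053 (wt embryo 1) for Rhag and -0.86 (hnRNP L deficient embryo 2) to 0.011 (hnRNP L deficient embryo 1) for Slc4a1. For log2 usage they were -0.17 (wt embryo 3) to 0.023 (wt embryo 2) for Rhd bin 10, -0.042 (wt embryo 1) to 0.0029 (hnRNP L deficient embryo 2) for Ank1 bin 54 and -0.010 (hnRNP L deficient embryo 2) to 0.17 (hnRNP L deficient embryo 3) for Epb41 bin 15. With at least 50 reads, Ank1 bins 51 to 53 were not tested. No paired analysis was possible because the numbers 1 to 3 only follow the order of the samples, and the first part of the embryo label is shared across the genotypes by only 1 pair.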
